A study of Homo sapiens with 12 samples.

Results

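Reh cells that received Ara-C for 48 h beside HS stromal cells were compared with untreated Reh cells. The aim was to show which changes seen with the drug remained beside the stroma and which levels were new there. Protection of the cells by the stroma was not tested. The comparison uses the 3 arrays of each of these groups, 6 of the 12 arrays of the study, and both groups were taken as the labels name them. Reh is a cell line derived from acute lymphoblastic leukemia of the B-cell precursor type. The other arrays hold 3 samples of Reh cells given Ara-C alone for 48 h and 3 given Ara-C for 48 h with HS5, the established bone marrow stromal line HS-5. HS is labelled as human stromal cells and not described further, no Ara-C dose is stated, and stroma without the drug was not among the groups. The effect of HS itself and its effect under Ara-C therefore cannot be told apart. Per the labels the replicates were independent triplicates.

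Ara-C (cytarabine) is a nucleoside analogue that cells phosphorylate and build into DNA, where it stalls replication forks and sets off checkpoint and p53 responses. Stromal cells of the bone marrow supply contacts, cytokines and nutrients to leukemia cells and are known to lower their response to such drugs. The lineage of a B-cell precursor line is read from transcripts of the pre-B receptor, of V(D)J recombination and of early B-cell surface antigens.

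Between 13064 and 14898 of 48800 probes were detected per array, the highest number on replicate 1 of Ara-C with HS, and 11183 genes were tested. Across genes, which are not independent replicates, arrays of 1 group correlated at r = 0.992 to 0.994, and arrays of Ara-C with HS correlated with untreated arrays at 0.965 to 0.968. All 12 arrays shared 1 chip and the 3 arrays of a group were neighbours on it. Position on the chip therefore cannot be told apart from group. Of 34 B-lineage precursor genes 24 were measured, among them CD79A, CD79B, MME, DNTT, RAG1, IGLL1 and VPREB3, while PAX5, CD22, VPREB1, RAG2 and CD34 were not detected often enough to be tested. Untreated cells also held granulocyte transcripts, with the myeloperoxidase gene MPO at a mean log2 intensity of 15.32. The 18 measured granulocyte precursor genes had a summed linear intensity of 85180 to 93640 on untreated arrays. That of the 24 B-lineage genes was 24185 to 25126. Each list holds its own probes, so the sums of different lists cannot be set against each other. With transcripts of both kinds present, the lineage of the cells cannot be read from these lists as B-cell precursor alone. Their identity was not tested beyond the labels. In bulk RNA of this kind, fewer cells of a type and less RNA per cell cannot be told apart.

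Levels are log2 intensities after normalization and changes are log2 differences between group means, each with its standard error (SE) from limma. Genes with a Benjamini-Hochberg adjusted p under 0.05 are termed called. Of the 11183 genes, 5048 (45.1%) were called between Ara-C with HS and untreated cells, 2606 (23.3%) higher and 2442 (21.8%) lower, and the arrays of the groups did not overlap for 53.9%. At least 2-fold changes were lopsided, with 558 genes (4.99%) higher and 130 (1.16%) lower. The median change of all genes was -0.01. Without quantile normalization, with arrays shifted to a common median, that median was 0.13 and 75.4% of the calls were higher, against 51.6% here, so small changes of either sign depend on the scaling. Of the same 11183 genes, 2851 (25.5%) rose and 2942 (26.3%) fell with Ara-C alone against untreated cells, 51.8% in all, and the arrays of those groups did not overlap for 60.0%. Between Ara-C with HS and Ara-C alone 42.1% were called, 21.6% higher and 20.5% lower with HS, with no overlap for 52.3%. Between HS and HS5, both under Ara-C, 43.2% were called, 22.3% higher and 20.9% lower with HS. These comparisons share arrays, so their values stand beside those with HS only for reading side by side. Counts of list members given below are to be read beside the shares over all genes given here.

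**Figure D1:**
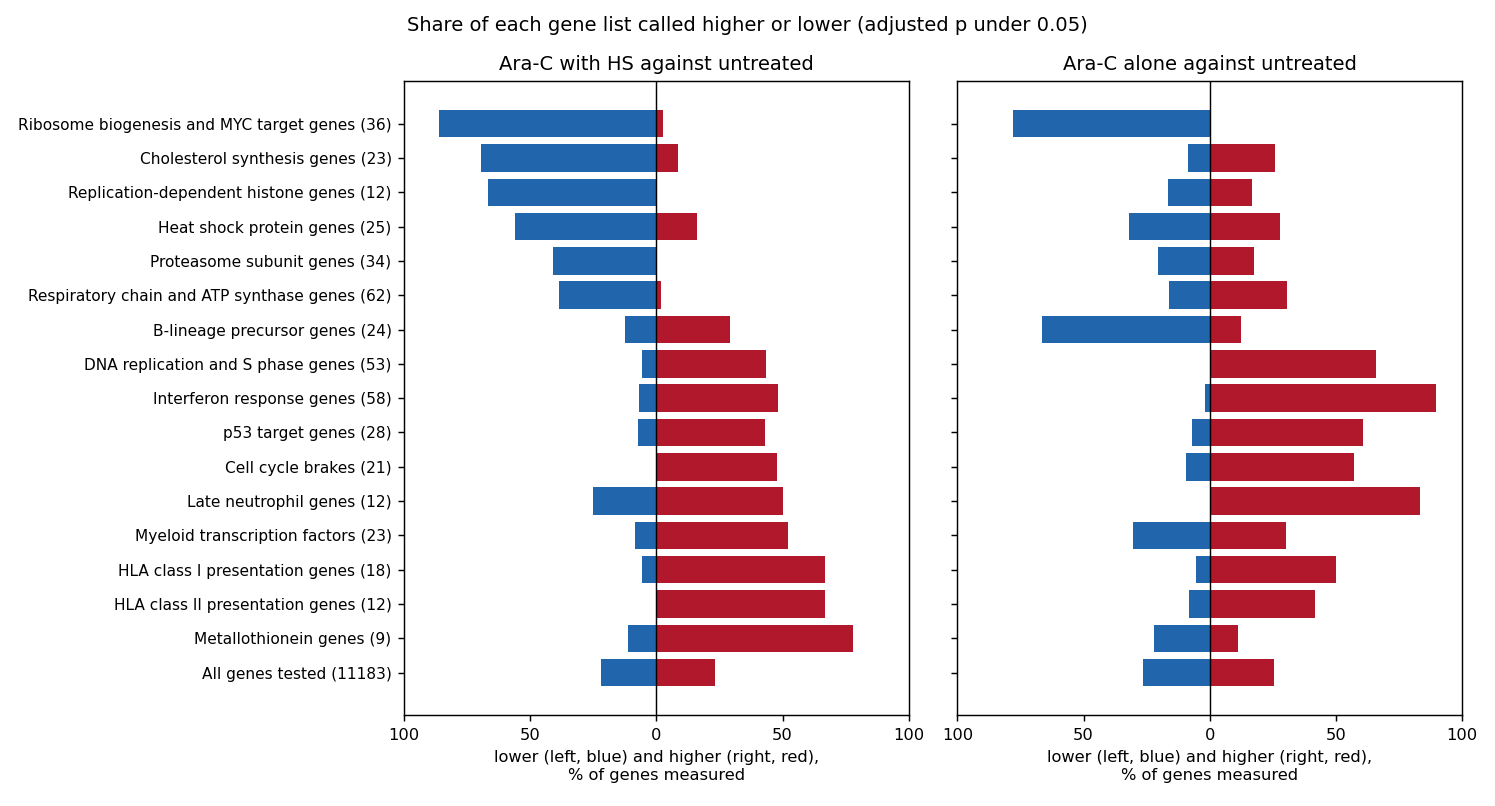
Each bar gives the percentage of a list's measured genes (number in brackets) called lower, to the left, or higher, to the right, at an adjusted p under 0.05, for Ara-C with HS (left panel) and Ara-C alone (right panel) against untreated cells; the lowest bar is all 11183 genes tested. With HS, 31 of 36 ribosome biogenesis genes and 16 of 23 cholesterol synthesis genes were lower and 7 of 9 metallothionein list genes were higher; both panels share the untreated arrays.

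Part of the p53 target genes were above the untreated level with HS, and against Ara-C alone 12 of 28 were lower with HS, 3 higher and 13 not called. CDKN1A, which codes for a p53-induced inhibitor of the cell cycle, stood at 6.08, 6.14 and 6.09 in untreated cells and at 8.43, 8.76 and 8.23 with Ara-C and HS. No array overlapped, and the rise was 5.17-fold (2.37, SE 0.14, adjusted p = 7.07e-08). With Ara-C alone it stood at 10.58, 10.67 and 10.94, above every array with HS (HS minus Ara-C alone -2.25, SE 0.14, adjusted p = 1.25e-07). Of 28 measured p53 target genes, 12 rose, 2 fell and 14 were not called, with a median change of 0.38 against -0.01 for all genes, where 17 rose and 2 fell with Ara-C alone. GADD45A, a growth arrest gene induced by DNA damage, rose by 1.54 with HS (SE 0.11) and by 1.32 with Ara-C alone. DRAM, a p53-induced regulator of autophagy, rose by 1.48 with HS (SE 0.14) and by 1.55 with Ara-C alone.

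Cell cycle brakes and cyclin-dependent kinase inhibitors were called higher in 10 of 21 cases, and none fell. With the trend, or without replicate 2 or 3 of Ara-C with HS, 1 fell. CCND1, which codes for the G1 cyclin D1 and is not a brake, stood at 8.03, 8.24 and 7.98 in untreated cells. It stood at 9.93, 10.12 and 9.83 with HS. The groups did not overlap (1.87, SE 0.12, adjusted p = 1.21e-07), and the mean of 9.96 with HS lay beside 9.81 with Ara-C alone (difference 0.15, SE 0.12, adjusted p = 0.328). Of 53 DNA replication and S phase genes 23 rose and 3 fell, with a median of 0.26, and with Ara-C alone 35 rose and none fell. The 3 falls were 1 without quantile normalization and 5 with the mean of probes. CCNE2, a cyclin that starts S phase, rose 4.30-fold (2.10, SE 0.09), the thymidine kinase gene TK1 3.44-fold (1.78, SE 0.12) and RRM2, the regulated subunit of ribonucleotide reductase, 3.06-fold (1.61, SE 0.12). All 3 were lower with HS than with Ara-C alone, by 0.79, 0.77 and 0.63 on the log2 scale (adjusted p = 2.16e-05, 0.000209 and 0.000968). Mitotic genes were mixed, with 17 of 57 higher and 5 lower, beside 23.3% and 21.8% over all genes tested. The 5 falls were 3 without quantile normalization, without replicate 3 of untreated cells or without replicate 2 of Ara-C with HS. CDC20, an activator of the anaphase-promoting complex, fell by 0.65 (SE 0.08), and TOP2A, the topoisomerase of dividing cells, rose by 0.64 (SE 0.10). Of 47 DNA damage checkpoint and repair genes, 11 rose and 10 fell, near the shares of 23.3% and 21.8% over all genes tested. Without quantile normalization 16 rose and 3 fell. The rises were 6 without replicate 1 of untreated cells and 7 without replicate 2 of Ara-C with HS, with 10 falls in each. FANCI, of crosslink repair, rose from a mean of 10.13 to 11.13 and LIG3, a DNA ligase, fell by 1.06 (SE 0.09).

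Some changes were called in the same direction with HS as with Ara-C alone, and that of MAT2A was also of like size. MAT2A, which makes the methyl donor S-adenosylmethionine, stood between 13.89 and 14.06 in untreated cells, at 12.56, 12.46 and 12.50 with Ara-C alone and at 12.50, 12.37 and 12.61 with HS. Arrays of both treated groups lay below all untreated arrays and overlapped each other (HS minus untreated -1.49, SE 0.09, adjusted p = 7.60e-08; HS minus Ara-C alone -0.01, SE 0.09, adjusted p = 0.918). RARRES3, a retinoid-induced phospholipase gene, rose 7.66-fold with HS (2.94, SE 0.17) and by 2.68 with Ara-C alone. By the rule for remaining changes, which orders genes called the same way in both comparisons by the smaller change, the rises also held CCBP2 (at least 3.85-fold, against the lowest level that counted as detected, since no untreated array detected it), GHRL (at least 3.17-fold), SEZ6L2 (at least 3.79-fold), NCF1 (at least 4.81-fold) and CTSL2 (5.10-fold). NCF1 codes for a subunit of the phagocyte oxidase and has near-identical copies, so its signal cannot be assigned to 1 locus. The falls also held MS4A7, a membrane protein gene of monocytes (-1.55, SE 0.10), DEPDC6 (at least 1.88-fold), ATPBD4 (-1.40), SNORA64 (-1.67), RSAD1 (-1.36), MIPEP (-1.32) and HIST1H2BH (-1.29).

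Ribosome biogenesis and MYC target genes stayed low with HS. Of 36 measured members, 31 fell, 1 rose and 4 were not called, with a median change of -0.59 against -0.01 for all genes. Without quantile normalization 26 fell and 1 rose. With Ara-C alone 28 fell and none rose, with a median of -0.52. SRM, the spermidine synthase gene, stood at 9.95, 9.69 and 9.82 in untreated cells and at 8.78, 8.81 and 8.83 with HS, with no overlap (-1.01, SE 0.11, adjusted p = 1.21e-05). Its 3 arrays with Ara-C alone, 8.65, 8.91 and 9.04, enclosed those with HS. NOL1, a nucleolar RNA methyltransferase gene, fell by 0.85 (SE 0.08), RRP12, of ribosomal subunit export, by 0.95 and PPRC1, a coactivator of mitochondrial genes, by 0.78. MYC itself, the factor that drives many of these genes, stood at 12.99, 12.89 and 13.15 without treatment, at 11.61, 11.65 and 11.68 with Ara-C alone and at 12.29, 12.36 and 12.49 with HS. The groups did not overlap, and the level with HS was lower than untreated (-0.63, SE 0.11, adjusted p = 0.000494) and higher than with Ara-C alone (0.74, SE 0.11, adjusted p = 0.000160). Genes of the cytosolic ribosomal proteins themselves had a median change of -0.01, with 8 of 75 lower and 1 higher (5 and 1 without quantile normalization, 9 and 4 with the trend).

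**Figure D2:**
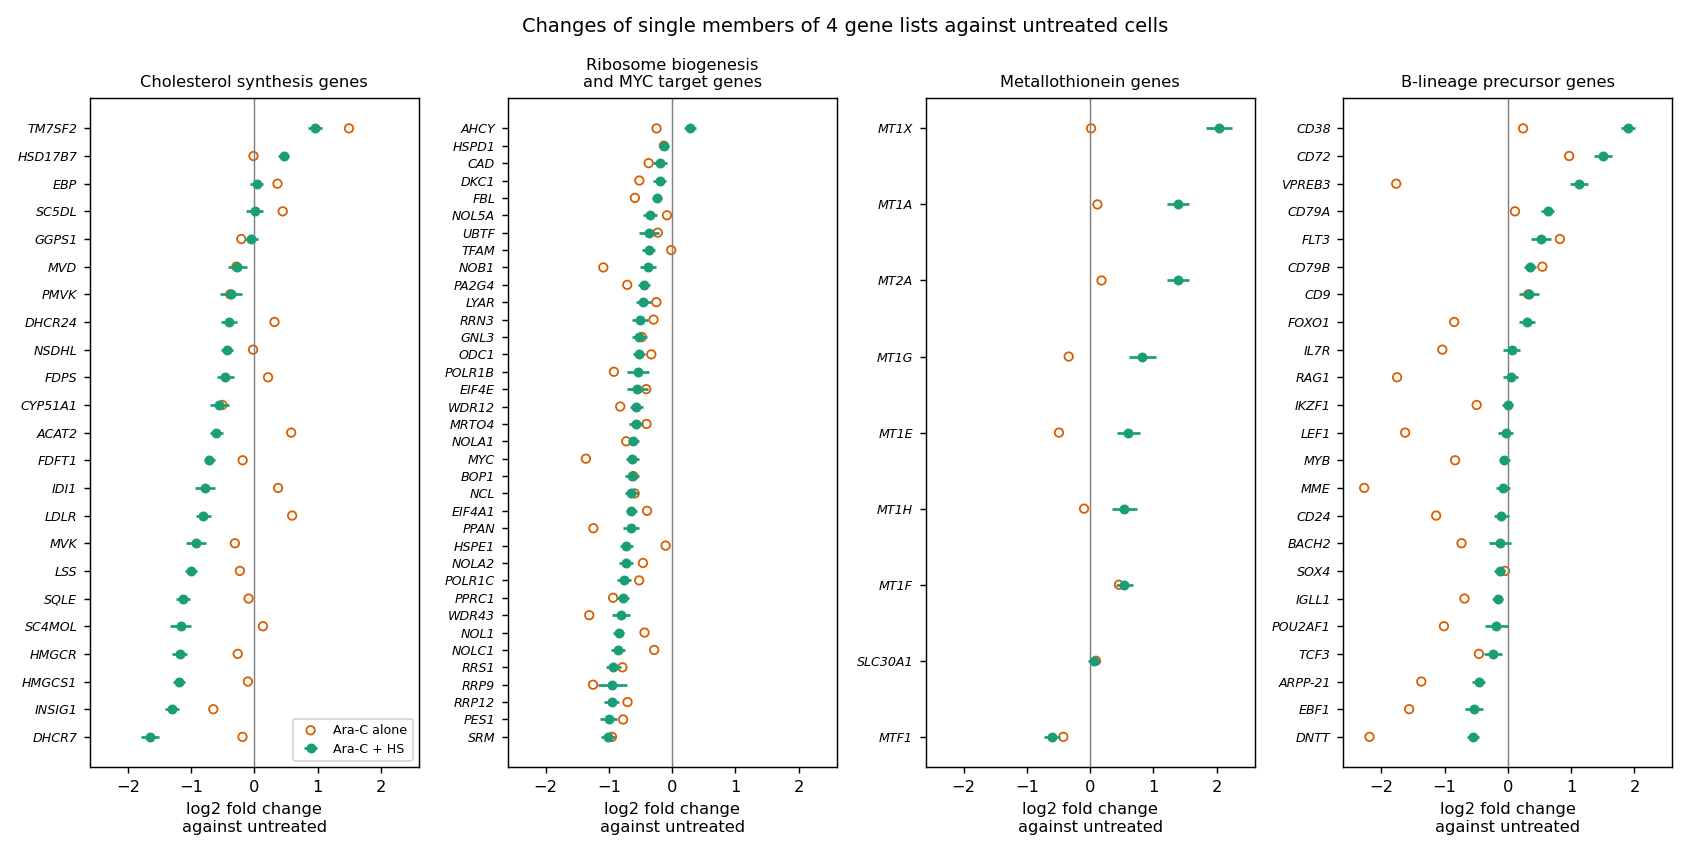
Points give the log2 fold change of the measured members, without 1 B-lineage gene that is not reported here, against untreated cells, filled with the SE as a bar for Ara-C with HS and open for Ara-C alone, in 4 gene lists. With HS most cholesterol synthesis and ribosome biogenesis genes lie left of 0 and most metallothionein genes right of it, while the B-lineage genes, whose median over all 24 was -0.78 with Ara-C alone, have a median of -0.02.

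In median and in sum, though not in every member, B-lineage precursor genes lay near their untreated level with HS. Of 24 measured members, 7 rose, 3 fell and 14 were not called, with a median of -0.02. Over all genes tested 23.3% rose and 21.8% fell, with a median of -0.01, so these values with HS do not set the list apart. With Ara-C alone 3 rose and 16 fell, with a median of -0.78, beside 25.5% higher and 26.3% lower over all genes. Without quantile normalization 9 rose and 1 fell with HS. Their summed linear intensity was 24185 to 25126 in untreated cells, 23847 to 25514 with HS and 14386 to 15176 with Ara-C alone. MME, the CD10 antigen gene of precursor B cells, stood at 7.43, 7.77 and 7.72 untreated and at 7.53, 7.53 and 7.63 with HS. These arrays overlap (-0.07, SE 0.11, adjusted p = 0.594), and MME was detected on no array with Ara-C alone. LEF1, the nuclear partner of beta-catenin, stood at 8.91, 8.80 and 8.84 untreated and at 8.89, 8.72 and 8.84 with HS, also overlapping (-0.03, SE 0.12, adjusted p = 0.842). With Ara-C alone its level was 6.97, 7.24 and 7.46, below all of these.

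Not all B-lineage genes were near the untreated level. DNTT, the terminal transferase of V(D)J recombination, stood at 11.27, 11.40 and 11.23 untreated and at 10.78, 10.67 and 10.79 with HS, without overlap (-0.55, SE 0.10, adjusted p = 0.000765). It was 9.31, 8.97 and 9.05 with Ara-C alone, lower than either. EBF1, an early B-cell transcription factor gene chosen after its values were seen, fell by 0.54 with HS (SE 0.14). Other members stood above the untreated level. CD38, an ectoenzyme of lymphoid and plasma cells, was 8.03, 7.72 and 7.89 untreated, 7.92, 8.29 and 8.14 with Ara-C alone and 9.79, 9.79 and 9.73 with HS. Of these groups that with HS stood apart (3.71-fold over untreated, 1.89, SE 0.11, adjusted p = 6.48e-08). VPREB3, a pre-B cell chaperone gene, was 7.78, 7.65 and 7.61 untreated, a mean of 5.91 with Ara-C alone and 8.74, 8.73 and 8.93 with HS. It thus lay above untreated cells with HS (1.12, SE 0.14, adjusted p = 4.28e-05) and below them without stroma (-1.77, SE 0.14). The B-cell surface gene CD72 rose at least 1.91-fold with HS, from no untreated detection.

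**Figure D3:**
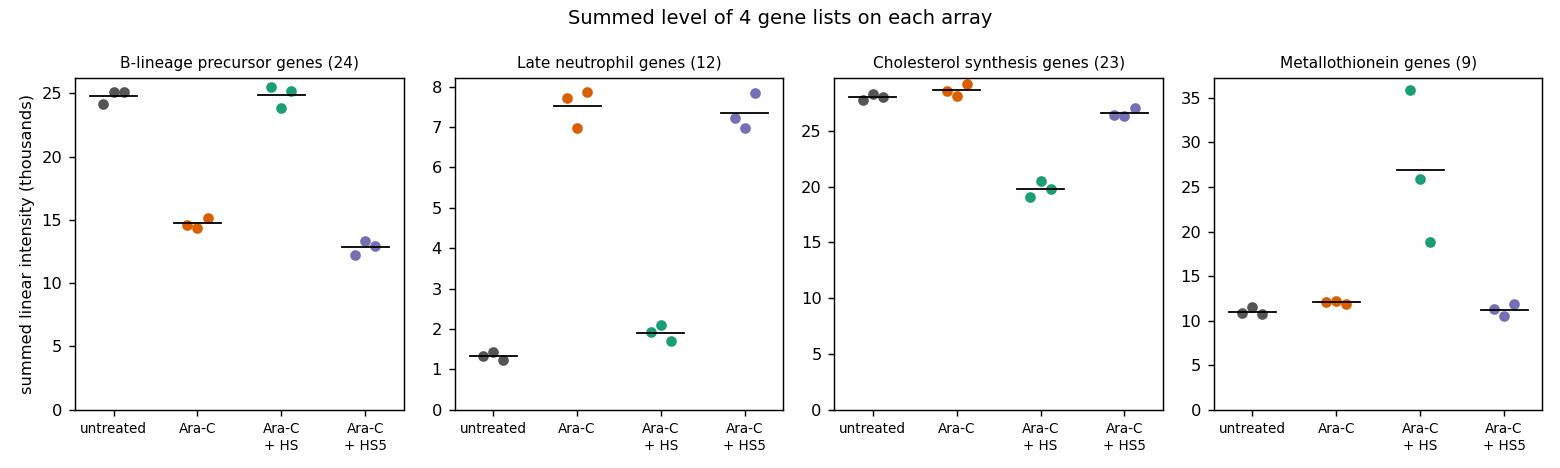
Points give the summed linear intensity of a list's measured genes (number in brackets) on each array and lines the group means. The B-lineage sums with HS lie at those of untreated cells, the late neutrophil sums just above them, the cholesterol synthesis sums below all other groups, and the metallothionein sums range from 18831 to 35920 with HS, above the other arrays.

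Of 58 interferon response genes, 28 rose and 4 fell with HS (36 and 1 without quantile normalization), with a median of 0.39, where 52 rose and 1 fell with Ara-C alone, with a median of 1.31. IFI35, an interferon-induced gene, stood between 5.86 and 6.09 untreated and at 7.97, 7.86 and 8.11 with HS (means 5.98 and 7.98, adjusted p = 1.87e-08). The groups were apart, and Ara-C alone, at 8.96, 8.80 and 8.79, was higher than both. GBP2, a guanylate-binding GTPase gene, rose 4.11-fold (2.04, SE 0.12) and IFI6 by 1.44 (SE 0.17). CXCL10, a chemokine gene of the same response chosen after its values were seen, was detected on no array of either untreated cells or cells with HS, and was 9.18, 8.52 and 8.95 with Ara-C alone. NF-kB target genes rose in 12 of 30 members and fell in 2 with HS, or 4 with the mean of probes or the replicate block. The shares over all genes tested were 23.3% higher and 21.8% lower with HS. With Ara-C alone 20 rose and 1 fell, and against Ara-C alone 12 were lower with HS and 1 higher. IRF1, an interferon regulatory factor, rose by 1.03 with HS, and the cytokine gene IL1B at least 1.35-fold.

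Late neutrophil genes divided. Of 12 measured members 6 rose and 3 fell with HS, and 10 rose with Ara-C alone, where none fell. ITGAM, the CD11b integrin chain gene, stood at 6.38, 6.59 and 6.52 untreated and at 8.90, 8.76 and 8.45 with HS, with no overlap (4.62-fold, 2.21, SE 0.13, adjusted p = 4.64e-08). The oxidase gene CYBB rose by 1.40, PADI4, which citrullinates histones, by 1.20, and S100A9 at least 1.60-fold. MMP9, a secreted gelatinase gene, was 8.97, 9.26 and 8.93 untreated, 12.11, 11.91 and 12.19 with Ara-C alone and 7.95, 8.57 and 8.06 with HS. It was raised without stroma and lay below the untreated level with HS (-0.86, SE 0.16, adjusted p = 0.000838). CAMP, the cathelicidin gene, chosen after its values were seen, was 9.01, 9.21 and 9.16 with Ara-C alone, while its probe was detected on 2 untreated arrays and 1 array with HS. The lysozyme gene LYZ, also chosen so, was 8.13, 8.36 and 8.23 untreated, 10.31, 10.32 and 10.38 with Ara-C alone and 8.64, 8.33 and 8.03 with HS, overlapping the untreated arrays (0.09, SE 0.13, adjusted p = 0.583), while a second LYZ probe had a change of -0.63.

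A few genes moved to opposite sides of the untreated level. CYTL1, a secreted cytokine-like gene, stood at 9.57, 9.77 and 9.55 untreated, at 11.95, 11.96 and 11.93 with Ara-C alone and at 8.26, 8.12 and 8.60 with HS. The 3 groups were separate, and the fall below untreated was 2.47-fold (-1.30, SE 0.12, adjusted p = 1.88e-06). GZMA, a granzyme gene of cytotoxic lymphocytes, was 6.14, 5.90 and 6.06 untreated, 8.81, 8.85 and 8.87 with Ara-C alone and not detected with HS, a fall of at least 1.36-fold from untreated. RNASE3, an eosinophil granule ribonuclease, fell by 1.27 with HS (SE 0.08) and rose by 0.69 with Ara-C alone. NQO1, a quinone reductase gene, was 8.58, 8.93 and 9.03 untreated and 7.89, 7.97 and 8.08 with HS (-0.87, SE 0.11, adjusted p = 4.66e-05), and rose by 1.34 with Ara-C alone. It belongs to the NRF2 oxidative stress genes, of which 9 of 28 rose and 5 fell with HS, with a median of 0.04. Over all genes tested 23.3% rose and 21.8% fell, so these counts do not set the list apart. KRT86, a hair keratin gene, showed the largest fitted fall of any gene that the rule names, from 8.46, 8.80 and 8.62 to 6.62, 6.24 and 6.54 (4.47-fold, -2.16, SE 0.11), and rose by 0.72 with Ara-C alone. KRT81, a close relative, fell by 1.55 (SE 0.30), and their probes may read each other's transcripts.

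**Figure D4:**
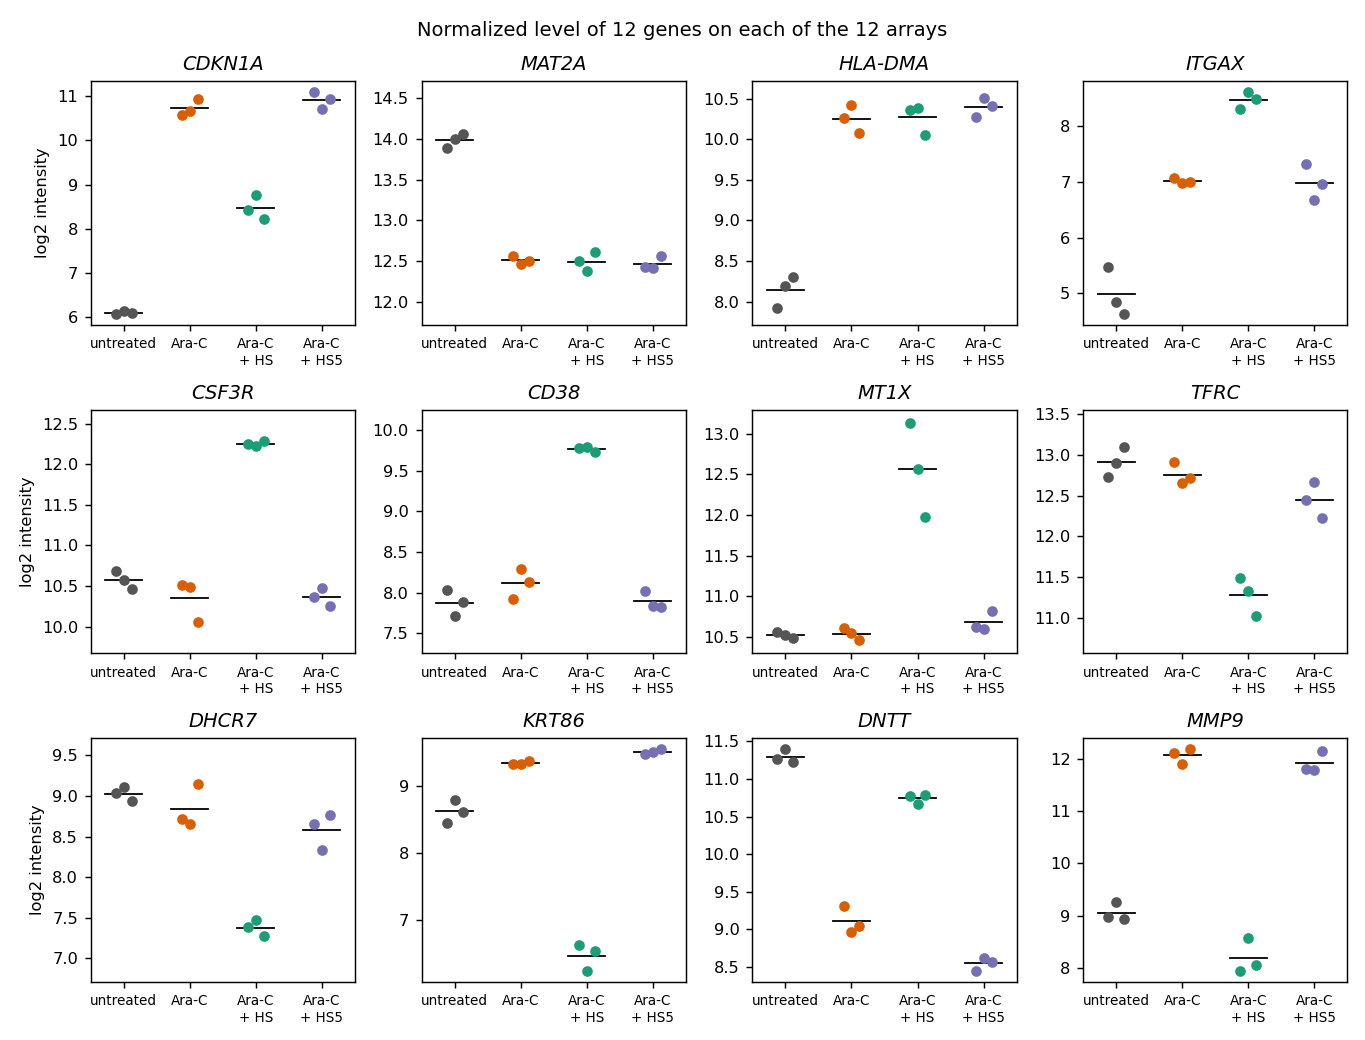
Points give the normalized log2 intensity of 12 genes on each array of the 4 groups and lines the group means; each panel has its own scale. CDKN1A lies between untreated cells and Ara-C alone with HS, MAT2A and HLA-DMA lie with Ara-C alone, CSF3R, CD38, MT1X, TFRC and DHCR7 stand apart with HS, and MMP9 lies below the untreated arrays.

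Several of the 14 largest rises with HS were in genes known from phagocytes. ITGAX, the CD11c integrin chain gene, was detected on no untreated array and stood at 8.31, 8.61 and 8.48 with HS, at least 6.50-fold above (adjusted p = 3.59e-08). Ara-C alone had it between 6.97 and 7.07, below all arrays with HS (difference 1.45, SE 0.19, adjusted p = 7.28e-05). FGR, a SRC-family kinase gene of myeloid cells, followed with at least 6.16-fold, from no untreated detection to 8.37, 8.45 and 8.34. PRAM1, an adaptor gene of granulocytes, was 7.88, 7.67 and 7.67 untreated, 8.16, 8.16 and 7.95 with Ara-C alone and 10.32, 10.47 and 10.43 with HS. It stood apart with HS (6.35-fold over untreated, 2.67, SE 0.09, adjusted p = 3.23e-09). CSF3R, the G-CSF receptor gene, was 10.68, 10.58 and 10.47 untreated, 10.51, 10.48 and 10.06 with Ara-C alone and 12.25, 12.22 and 12.29 with HS, a 3.20-fold rise over untreated (1.68, SE 0.12, adjusted p = 2.86e-07). Ara-C alone was not called for CSF3R (-0.23, SE 0.12, adjusted p = 0.132). Also among the 14 largest rises were PSCD4 (2.79), PSMB9 (2.69) and CD52 (2.66), a surface glycopeptide gene of leukocytes.

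By the rule for changes beyond Ara-C alone, which takes genes called the same way against both untreated cells and Ara-C alone, further rises were in SLC11A1, a metal transporter gene of phagocytes (1.73, SE 0.14), GPR97, a granulocyte receptor gene (1.67, SE 0.18), ITGA2B, the CD41 integrin chain gene (at least 1.76-fold), RENBP (at least 2.51-fold), HAL (1.72, with a second probe at 0.49) and OPLAH (1.75). ADSSL1 rose by 2.12, but a second probe of it had a change of -0.17. Of 23 myeloid differentiation factors 12 rose and 2 fell, with a median of 0.38, beside 7 higher and 7 lower with Ara-C alone. CEBPB, a factor of emergency granulopoiesis, rose by 0.81 with HS (SE 0.09, adjusted p = 1.84e-05) and was not called with Ara-C alone (-0.15, adjusted p = 0.189). ID2, an inhibitor of basic helix-loop-helix factors, rose 4.68-fold (2.23, SE 0.12), and IRF8, a monocyte factor, at least 1.58-fold. Granulocyte precursor genes were split, with 9 of 18 higher and 6 lower. SERPINB1, an elastase inhibitor gene, rose by 1.35 (SE 0.10), and CTSG, the cathepsin G gene, fell by 1.29 (SE 0.09) from 13.66, 13.70 and 13.58 to 12.29, 12.38 and 12.38.

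Antigen presentation genes of both classes rose with HS. Of 18 HLA class I presentation genes 12 rose and 1 fell, with a median of 0.64, and class II genes rose in 8 of 12, with none lower and a median of 0.64. With Ara-C alone the medians were 0.28 and 0.12, and 9 class I genes rose and 1 fell. Against Ara-C alone 9 class I genes were higher and 5 lower with HS. Their summed linear intensity was 28595 to 29719 untreated, 35017 to 37038 with HS and 38154 to 39718 with Ara-C alone. HLA-DMA, which loads peptides onto class II molecules, stood at 7.93, 8.19 and 8.30 untreated and at 10.36, 10.39 and 10.06 with HS, without overlap (4.37-fold, 2.13, SE 0.13, adjusted p = 7.60e-08). Its level with Ara-C alone, 10.26, 10.42 and 10.08, overlapped that with HS. HLA-DRA, a class II chain gene, instead rose by 0.65 with HS (adjusted p = 0.000725) and fell by 0.50 with Ara-C alone. HLA-B, a class I chain gene, was 8.25, 7.34 and 7.72 untreated and 9.84, 9.83 and 9.87 with HS, apart from each other (4.21-fold, 2.07, SE 0.17). PSMB9 and PSMB8, subunits of the immunoproteasome, rose by 2.69 (SE 0.22) and 1.21 (SE 0.12). HLA genes are polymorphic and alike in sequence, so a probe can read alleles and relatives unequally.

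Metallothioneins, small proteins that bind zinc and copper, rose with HS. Of 9 list members measured, 7 rose, all of them metallothioneins, and MTF1, the zinc-sensing factor that switches on these genes, fell (-0.60, adjusted p = 0.00187). The median change was 0.61, beside 0.02 with Ara-C alone, where 1 rose and 2 fell. MT1X stood at 10.56, 10.52 and 10.48 untreated, at 10.60, 10.55 and 10.46 with Ara-C alone and at 13.13, 12.56 and 11.98 with HS. The groups did not overlap (4.10-fold, 2.04, SE 0.20, adjusted p = 5.25e-06), and the spread among the 3 arrays with HS was wider than in the other groups. MT2A was 11.10, 11.27 and 11.13 untreated and 13.02, 12.55 and 12.08 with HS (1.38, SE 0.17, adjusted p = 3.78e-05), again apart. MT1A rose by 1.39 (SE 0.17). Without replicate 1 of Ara-C with HS, the array with the highest levels, 5 of the 9 rose and the median was 0.42. Metallothionein transcripts are alike, so probes may read more than 1 of them. With HS5 the mean of MT1X was 10.68, and HS exceeded it by 1.88 (SE 0.20, adjusted p = 1.09e-05).

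Metallothionein promoters are known to carry metal response elements, to which MTF1 binds, and the upstream windows of the pair with the best-known zinc response are shown for that reason. The 250 bases before the start of each gene come from RefSeq on GRCh38.p14, at chr16:56682220-56682469 for MT1X and chr16:56608334-56608583 for MT2A, both on the plus strand. Capitals mark each match of TGCACNC or TGCGCNC, the core letters of the element, on either strand.
MT1X: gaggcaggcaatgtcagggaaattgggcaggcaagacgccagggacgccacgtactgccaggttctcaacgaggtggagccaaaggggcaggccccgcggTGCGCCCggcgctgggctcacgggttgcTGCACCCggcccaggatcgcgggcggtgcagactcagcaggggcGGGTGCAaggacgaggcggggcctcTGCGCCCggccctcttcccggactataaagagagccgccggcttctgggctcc
MT2A: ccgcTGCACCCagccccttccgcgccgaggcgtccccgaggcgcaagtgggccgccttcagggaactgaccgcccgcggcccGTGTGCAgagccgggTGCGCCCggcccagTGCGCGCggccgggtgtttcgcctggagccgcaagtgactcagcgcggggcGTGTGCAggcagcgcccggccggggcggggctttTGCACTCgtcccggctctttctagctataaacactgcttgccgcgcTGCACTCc
The MT1X window held 4 matches and that of MT2A 7. Of the 7 metallothioneins measured, 3 had a window in the table, and each held at least 2 matches, as 6.51% of all 27305 windows of this length did (24.7% held at least 1). A match is a description of the letters and not a shown binding site.

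Cholesterol synthesis genes fell with HS. Of 23 measured members 16 fell, 2 rose and 5 were not called, with a median change of -0.60 against -0.01 for all genes, and without quantile normalization 13 fell and 2 rose. With Ara-C alone 2 fell and 6 rose. DHCR7, which makes cholesterol from its last precursor, stood at 9.04, 9.11 and 8.93 untreated, at 8.72, 8.66 and 9.15 with Ara-C alone and at 7.39, 7.47 and 7.28 with HS. Arrays with HS lay below all others (3.14-fold below untreated, -1.65, SE 0.14, adjusted p = 1.28e-06), and Ara-C alone overlapped untreated cells. HMGCS1, the synthase at the start of the pathway, had a mean of 11.13 (SD 0.09, n = 3) untreated and 9.94 (SD 0.07, n = 3) with HS (-1.19, SE 0.10, adjusted p = 1.14e-06). The squalene epoxidase gene SQLE fell by 1.13 and INSIG1, a sterol-sensing regulator of the pathway, by 1.30 (SE 0.12). FDFT1, the squalene synthase gene, fell by 0.71, and HSD17B7, of the later steps, was among the rises at 0.47. Of 17 cholesterol synthesis genes with a RefSeq upstream window, 4 (23.5%) held TCACNCC, core letters of the sterol regulatory element, on either strand, as did 12.8% of all windows.

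Other lipid and iron genes were measured beside them. FASN, the fatty acid synthase gene, fell from 12.22, 12.24 and 12.31 to 11.17, 11.35 and 11.13 (2.06-fold, -1.04, SE 0.10, adjusted p = 3.06e-06), and SCD, a desaturase gene, by 0.48. The fatty acid synthesis list was mixed, with 5 of 15 higher and 4 lower, or 7 lower with the mean of probes. Over all genes tested the shares were 23.3% and 21.8%, so these counts do not set the list apart. Cholesterol efflux and liver X receptor target genes rose in 7 of 12 members and fell in 1 with HS, and 8 rose and none fell with Ara-C alone. NR1H3, which codes for liver X receptor alpha, rose by 0.76 (SE 0.10) and the sterol carrier gene NPC2 by 0.76, both also higher with Ara-C alone, by 1.11 and 0.72. TFRC, the transferrin receptor that imports iron, was 12.73, 12.90 and 13.10 untreated, 12.91, 12.65 and 12.71 with Ara-C alone and 11.48, 11.33 and 11.02 with HS. The arrays with HS lay below both of the others (3.10-fold below untreated, -1.63, SE 0.14, adjusted p = 1.87e-06; Ara-C alone -0.15, adjusted p = 0.403). The ferritin heavy chain gene FTH1, which stores iron, rose by 1.05 with HS and by 1.51 with Ara-C alone.

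Of 38 histone genes of the replication-dependent clusters 26 were not measured. Of the 12 measured, 8 fell with HS, none rose, and the median was -0.57. With Ara-C alone 2 rose and 2 fell. The summed linear intensity of the 12 was 28838 to 29617 untreated, 18004 to 18864 with Ara-C alone and 19335 to 22445 with HS. HIST1H2AC fell at least 2.17-fold to below detection, HIST1H1C by 0.95 (SE 0.13), and HIST1H4C from a mean of 14.61 (SD 0.03, n = 3) to 14.15 (SD 0.13, n = 3; -0.46, SE 0.09, adjusted p = 0.00118). HIST1H4C was lower still with Ara-C alone, at 13.66, 13.78 and 13.67. Histone genes are near-identical in sequence, so the probes may not separate them. Heat shock protein genes fell in 14 of 25 and rose in 4 (11 and 4 without quantile normalization). CHORDC1, an HSP90 cochaperone gene, fell by 1.28 (SE 0.16) and HSPE1, the mitochondrial cochaperonin gene, by 0.72 (SE 0.10), while BAG3, a chaperone regulator of the stress response, rose by 1.01.

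Proteasome subunit genes had 14 of 34 lower and none higher, with a median of -0.21, which became 8 lower without quantile normalization. PSMD1, of the regulatory particle, fell by 0.68. Respiratory chain and ATP synthase genes had 24 of 62 lower and 1 higher, with a median of -0.18, and 12 lower and 1 higher without quantile normalization. NDUFS3 and NDUFB7, subunits of complex I, fell by 0.60 and 0.62. Both counts of falls thus depended on the scaling by over 1.5 times. Glycolysis and hypoxia response genes rose in 14 of 36 and fell in 3, and in 12 and 5 without replicate 2 of Ara-C with HS. The shares over all genes tested were 23.3% higher and 21.8% lower. ENO2, an enolase gene, was detected on no untreated array and stood at 7.97, 8.06 and 7.12 with HS, at least 3.87-fold higher, and ADM, a hypoxia-induced peptide gene, rose by 2.26 (SE 0.16), as it did with Ara-C alone (2.18).

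Survival and drug metabolism genes changed in both directions. Of 18 anti-apoptotic genes 4 rose and 4 fell, near the shares of 23.3% and 21.8% over all genes tested. Without quantile normalization 5 rose and 1 fell. Leaving out replicate 1 of untreated cells, or replicate 1, 2 or 3 of Ara-C with HS, left 2 falls. Of 35 pro-apoptotic genes and caspases 16 rose and 3 fell, or 20 and 1 without quantile normalization and 14 and 6 with the mean of probes. BCL2, the survival gene of lymphoid cells, stood at 10.24, 9.95 and 10.14 untreated and at 9.91, 9.69 and 9.75 with HS (-0.32, SE 0.12, adjusted p = 0.0454), near the threshold, and fell by 0.99 with Ara-C alone. A second BCL2 probe had a change of -0.90. MCL1, another survival gene, was 9.08, 9.18 and 9.29 untreated and 9.32, 9.38 and 9.13 with HS, which overlap (0.09, SE 0.12, adjusted p = 0.560), while a second MCL1 probe had a change of -0.55. DCK, the kinase that activates Ara-C, was 9.76, 9.87 and 10.04 untreated and 10.63, 10.64 and 10.65 with HS (0.75, SE 0.11, adjusted p = 0.000133), beside 0.54 with Ara-C alone, and a second DCK probe had a change of 0.23. CDA, the deaminase that inactivates Ara-C, was detected on no untreated array and on 2 of 3 with HS, at least 1.32-fold higher, and its mean was 6.17 with HS and 7.32 with Ara-C alone.

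Wnt genes, which the title of the study names, were called in both directions between cells with HS and untreated cells. Of all genes tested, 23.3% were called higher and 21.8% lower. Of 24 measured Wnt target genes 5 rose and 6 fell (7 and 3 without quantile normalization), near these shares. The counts thus do not set the Wnt targets apart from other genes. Of 29 signalling components 6 rose and 4 fell (8 and 1 without quantile normalization). For CTNNB1, the beta-catenin gene, the change of -0.10 was not called. Beside CCND1 and LEF1, given above, NKD2, a feedback inhibitor of the pathway, fell by 0.86 and CSNK1E, a casein kinase gene, rose by 0.55. Notch signalling genes rose in 8 of 20 members and fell in 1, or 3 with the mean of probes. LFNG, a glycosyltransferase gene that modifies Notch, was 6.41, 6.39 and 6.61 untreated, 7.16, 7.17 and 7.08 with Ara-C alone and 8.59, 8.18 and 8.02 with HS. Its 3 groups were separate (3.46-fold over untreated, 1.79, SE 0.16, adjusted p = 1.87e-06). Leukocyte adhesion and homing genes rose in 15 of 30 and fell in 2 with HS, and 15 rose and 5 fell with Ara-C alone. ITGB2, the partner chain of ITGAX and ITGAM, rose by 1.35 with HS (SE 0.08). CXCR4, the receptor for the stromal chemokine CXCL12, was 9.26, 9.18 and 9.32 untreated and 9.31, 9.26 and 8.98 with HS, overlapping (-0.07, SE 0.11, adjusted p = 0.642).

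Markers of the stromal cells were measured because the cells had shared a culture. Of 45 fibroblast markers 13 were measured, and 8 of these rose and none fell with HS, beside 10 higher and 1 lower with Ara-C alone, where no stroma was present. COL1A1, COL1A2, COL3A1, FN1, DCN and LUM, the defining matrix genes, were not detected on enough arrays to be tested. The summed linear intensity of the 13 was 12296 to 14212 untreated, 14263 to 15289 with HS and 21384 to 22594 with Ara-C alone. ACTA2, the smooth muscle actin gene, stood at 10.60, 10.57 and 10.56 with HS and at 10.59, 10.68 and 10.65 with Ara-C alone, against 8.91, 8.82 and 8.96 untreated (1.68, SE 0.08). SPARC, a matrix protein gene, rose at least 1.64-fold with HS from no untreated detection and was lower there than with Ara-C alone (-1.03, SE 0.20, adjusted p = 0.00115). Macrophage and monocyte markers rose in 6 of 11 members with no falls, with sums of 9194 to 9257 untreated and 12167 to 14328 with HS. With Ara-C alone, without stroma, 10 of the 11 rose and none fell, with sums of 11068 to 12512. T and NK cell markers rose in 4 of 7 and fell in 1 with HS, and 6 rose and none fell with Ara-C alone. CD2, CD3E and CD3G were not detected often enough to be tested. The part of other cells in these rises was not tested.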

How the data were processed

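RNA of 12 samples was hybridised to Illumina BeadChips, 3 arrays in each of 4 groups given by the labels. Per the file headers, each deposited scanner table gives a mean bead intensity for every probe, without normalization, and its detection p-value. The table of the authors is on the log2 scale and matched log2 of quantile-normalized signals to within 0.000167. The submitters' processing notes name R 2.9.2.

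The neqc function (limma 3.58.1, R 4.3.3) corrected background, added an offset of 16, quantile-normalized and took log2. Of 48800 probes, 14939 had a detection p under 0.01 on at least 3 arrays (449 without a symbol). Each of 11183 genes was represented by its brightest kept probe on average, and 2681 had several. Of the tested symbols, 90.4% matched a current one. No probe positions were used, and symbols turned into dates (17) were not named.

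A single limma model (lmFit, eBayes) took the 12 arrays together with 1 mean per group, leaving 8 residual degrees of freedom, with 2-sided tests and Benjamini-Hochberg adjustment over all genes of a comparison. It was tested on simulated data. Where a probe was detected on no array of a group, "at least" gives the fold against the higher of the lowest detected level and the probe's own signal, while differences given with an SE are fitted. Precision is limited by the number of arrays. The members and the 44 gene lists were chosen with earlier results of these data known. The genes named are the 14 largest rises and falls, 8 of each that remain, 10 of each beyond Ara-C alone, up to 4 members of each list by adjusted p, 2 by level, and 13 genes of interest, without uncharacterised names; others are said to be chosen after their values were seen, and not all genes that the rule takes are given; some items are not reported here. Alternatives were the deposited table, a median shift, the detection filter, the mean of probes, a replicate block, a trend with robust eBayes, a minimum fold of 1.5, only the arrays compared, and leaving out each array.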

Additional observations from a re-analysis of the deposited data

Results flagged for a closer look

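Under the same Ara-C treatment, the 2 stromal cell groups differed from each other in 4830 of 11183 genes (43.2%), by the test of Ara-C with HS against Ara-C with HS5. MT1X, CSF3R, CD38 and VPREB3 were higher with HS, by 1.88, 1.89, 1.87 and 3.31 on the log2 scale, and CDKN1A, MMP9 and CYTL1 were lower, at -2.43, -3.72 and -3.91.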

How the results depend on the processing

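The numbers of calls kept within 1.5 times under the deposited table, both detection filters, the mean of probes, the trend with robust eBayes and the fit to only the arrays compared. Shifting arrays to a common median gave 1077 lower calls for Ara-C with HS against untreated cells, 1259 lower for Ara-C alone against untreated, and 1583 higher for Ara-C with HS against Ara-C alone. A test against a minimum fold of 1.5 called 643 genes with HS against untreated (527 higher, 116 lower), 1075 with Ara-C alone against untreated (776 and 299), 492 with HS against Ara-C alone (211 and 281) and 591 with HS against HS5 (276 and 315), since it asks for larger changes. Leaving out each array gave 4317 to 4487 calls with HS against untreated (2302 to 2365 higher, 2015 to 2149 lower), 5187 to 5289 with Ara-C alone against untreated (2601 to 2663, 2586 to 2638), 3924 to 4233 with HS against Ara-C alone (1991 to 2162, 1933 to 2071) and 4236 to 4364 with HS against HS5 (2175 to 2256, 2050 to 2113).

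With the replicate number as a block, 4888 genes were called with HS against untreated (2536 higher, 2352 lower). Deviations of same-numbered arrays correlated at -0.05 to 0.03, so the numbers did not pair the samples.

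Of the single-gene values, 3801 stayed called or not called as before, 202 lost and 14 gained a call. Of values called in either setting, 0 reversed. Values called in neither setting counted as kept whatever their sign, and some changed sign. Leaving out single arrays gave -0.19 to 0.0012 for CTNNB1 and -0.068 to 0.015 for LEF1. Medians of these lists, nearly all close to 0, changed sign. Under the median shift it was 0.17 for DNA damage checkpoint and repair, 0.16 for Wnt components, 0.14 for Wnt targets, 0.16 for B-lineage, 0.092 for anti-apoptotic and 0.010 for fatty acid synthesis genes and 0.077 for osteoblast markers. Leaving out single arrays gave -0.058 to 0.022 for repair (0.022 without untreated replicate 1, 0.0012 without replicate 1 of Ara-C with HS) and -0.082 to 0.016 for Wnt components (0.016 without untreated replicate 1, 0.0060 and 0.0012 without replicates 1 and 2 of Ara-C with HS), and medians just above 0 for Wnt targets (up to 0.021), anti-apoptotic (0.028), B-lineage (0.0025) and ribosomal protein genes (0.010) and osteoblast markers (up to 0.034). The stricter filter gave -0.41 for erythroid markers, 0.0019 for Wnt targets and 0.025 for osteoblast markers. Beyond the minimum fold and the smaller sets of arrays or genes, the cause was not tested. Probes near the detection limit give only bounds.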
